A study of Homo sapiens with 4 samples.

Results

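Accessible chromatin was described around 7 genes that encode stress-response transcription factors of the ATF and C/EBP families or their partner: DDIT3, ATF4, ATF3, ATF5, CEBPB, CEBPG and NUPR1. The genes were chosen by name, and a region was taken as theirs when its midpoint lay within 20 kb of 1 of 8 listed hg19 start sites, with ATF3 given at 2 starts. Regions within 2 kb of a start were called promoter regions. By this rule 36 of 78788 regions were near the 7 genes, 13 of them promoter regions, and they held 97 of the 234140 peaks listed in the 4 libraries. The assay was ATAC-seq, which marks accessible DNA by the places where a transposase loaded with sequencing adapters can insert them. The cells were wild-type (WT) HCT116, an established human colorectal cancer line. One group of 2 libraries came from cells kept for 6 h in tunicamycin at 0.5 µg/ml, and the other group of 2 from cells kept for 6 h in 0.1% DMSO, the solvent. Every library was made from 50000 cells, and both groups share the genotype, line and exposure time.

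Tunicamycin blocks N-linked glycosylation, so that unfolded proteins build up in the endoplasmic reticulum (ER). One arm of the response runs through the kinase PERK, which phosphorylates the translation factor eIF2α. General translation is then reduced while the ATF4 mRNA, and likewise that of ATF5, is translated more through upstream open reading frames in its leader. ATF4 is a basic leucine zipper protein that pairs with C/EBP proteins on C/EBP-ATF composite elements, and DDIT3 (also named CHOP), ATF3 and NUPR1 are known targets of it. These steps act largely on translation and on transcription factor binding, and the lists here hold positions of open chromatin, with no RNA or protein level.

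The promoter sequences are shown because the factors under study bind such elements and because several of the genes are targets of the others. RefSeq promoters on GRCh38.p14, each with 250 bases before and 50 bases after a start, matched 6 of the 7 genes with 13 promoters. The peaks lie on hg19, so no peak was placed on these letters. In the first pair of sequences, the 250 bases before a start of DDIT3 (chr12:57520518-57520767, minus strand) and of CEBPG (chr19:33373459-33373708, plus strand), capitals mark the AP-1 site TGANTCA and the NF-Y box CCAAT on either strand. In the 30-base stretches, capitals mark a C/EBP-ATF composite element TGATGNAA before a start of ATF3 (chr1:212565205-212565234, plus strand) and of CEBPG (chr19:33374060-33374089, plus strand), and a TATA box TATAAA of CEBPB (chr20:50190790-50190819, plus strand).
DDIT3: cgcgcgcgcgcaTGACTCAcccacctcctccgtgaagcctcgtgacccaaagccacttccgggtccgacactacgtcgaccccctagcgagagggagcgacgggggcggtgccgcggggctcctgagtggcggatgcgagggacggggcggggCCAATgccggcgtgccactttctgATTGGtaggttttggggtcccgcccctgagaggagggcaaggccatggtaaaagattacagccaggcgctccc
CEBPG: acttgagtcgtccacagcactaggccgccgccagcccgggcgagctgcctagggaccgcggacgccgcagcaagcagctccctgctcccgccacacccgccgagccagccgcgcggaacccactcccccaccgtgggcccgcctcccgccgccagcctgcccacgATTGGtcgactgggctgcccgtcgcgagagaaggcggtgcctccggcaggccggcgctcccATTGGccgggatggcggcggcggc
ATF3 element: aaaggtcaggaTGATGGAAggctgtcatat
CEBPG element: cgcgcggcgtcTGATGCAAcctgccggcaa
CEBPB TATA box: cgggccgccctTATAAAtaaccgggctcag
The DDIT3 stretch was 67.6% G or C and the CEBPG stretch 76.0%.

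Both strands of 35116 RefSeq promoters of the same length were searched for each motif. The 13 promoters are not separate sequences: those of DDIT3 start 3 bp apart, as do those of ATF4, and the pair of CEBPB starts lies 247 bp apart, so 1 site can be counted in more than 1 promoter. The composite element TGATGNAA was found in 3.62% of all promoters and in 2 of the 13, as TGATGGAA with its first base 191 bp before a start of ATF3 and as TGATGCAA 42 bp before the inner start of CEBPG. That inner start lies 404 bp from the outer one, which places the CEBPG match 362 bp past the outer start. The DDIT3 promoters held the AP-1 site TGACTCA, and 1 ATF5 promoter held it 188 bp before its start. In all, TGANTCA was in 3 of the 13 promoters, of which the DDIT3 pair holds the same site, and in 7.71% of all promoters. The NF-Y box CCAAT was in 6 of the 13, those of DDIT3, ATF3, CEBPB and CEBPG, against 34.6% of all promoters. TATAAA was in 4 of the 13, among them the ATF4 pair, which holds the same box, and 1 CEBPB promoter, with the box 27 to 30 bp before the start, against 11.5% of all. The GC box GGGCGG was in 10 of the 13, with all 6 genes represented, against 45.0% of all. No match in these windows was found for the cAMP response element TGACGTCA (1.85% of all promoters), the ATF6 or XBP1 element TGACGTGG (0.729%), the palindromic C/EBP site TTGCGCAA (0.151%) or the ER stress response element, written as CCAAT, 9 bases and CCACG (0.0769%). These overlaps of letters are descriptions, and CCAAT is also a part of the last of these elements. Only exact letters were searched, so elements that differ by 1 base were not counted. Bases more than 250 before or 50 after a start were not searched. The lack of a match, as for the composite element at DDIT3, holds for these windows alone. In the DDIT3 sequence above, CCAAT is followed by 9 bases and CCACT, 1 letter off the searched string.

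The 4 lists held 58467 and 62526 peaks in tunicamycin and 56581 and 56566 in DMSO. Read totals were not used here. From the fold and the −log10 p-value that the authors deposited for each peak, the number of reads at its summit and the background under it could be recovered, for 100% of peaks within a tolerance of 0.001. The median peak had 15 or 16 summit reads in every library, and no listed peak was narrower than 100 bp. Values of single regions near these numbers rest on few reads. The SDs given below are between libraries, and the SEs come from limma, which also draws on the spread of other regions.

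Chromatin at these genes was already open in DMSO: 6 of the 7 genes had a promoter region listed in all 4 libraries, and NUPR1, a small stress-induced chromatin protein, had none in any library. Tunicamycin libraries listed 23 and 28 peaks near the 7 genes, and DMSO libraries 21 and 25. The groups overlap. The means were 25.5 ± 3.54 peaks in tunicamycin and 23 ± 2.83 in DMSO (SD, n = 2 each), a difference of 2.5 peaks with a two-sided exact permutation p = 0.667, where 0.333 is the smallest p that 2 against 2 libraries allow. The ratio of 1.11 near the genes stands beside 1.07 for the whole lists.

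Peaks of the 4 lists that shared at least 1 bp were merged into regions. Of the 36 regions near the genes, 15 (41.7%) were common to all 4 libraries, against 51.3% of all regions. A region was called gained when both tunicamycin lists and no DMSO list held it, and lost in the reverse case. Gained regions numbered 2 of 36 (5.56%), where 3.65% of all regions were gained. There were 0 lost regions of 36, where 1.86% of all regions were lost. With 36 regions, neither count is read as a result about these genes. Another 5 regions were in 3 of the lists, 2 were in 1 list of each group, and 12 were in a single list. Of those 12, 7 were in a tunicamycin list and 5 in a DMSO list. The 12 single-list peaks had 5 to 14 summit reads and widths of 100 to 132 bp, while the 62 peaks of common regions had 9 to 54 reads and up to 610 bp. Per gene the regions ranged between 1 at CEBPG and 10 around the starts of ATF3.

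**Figure D1:**
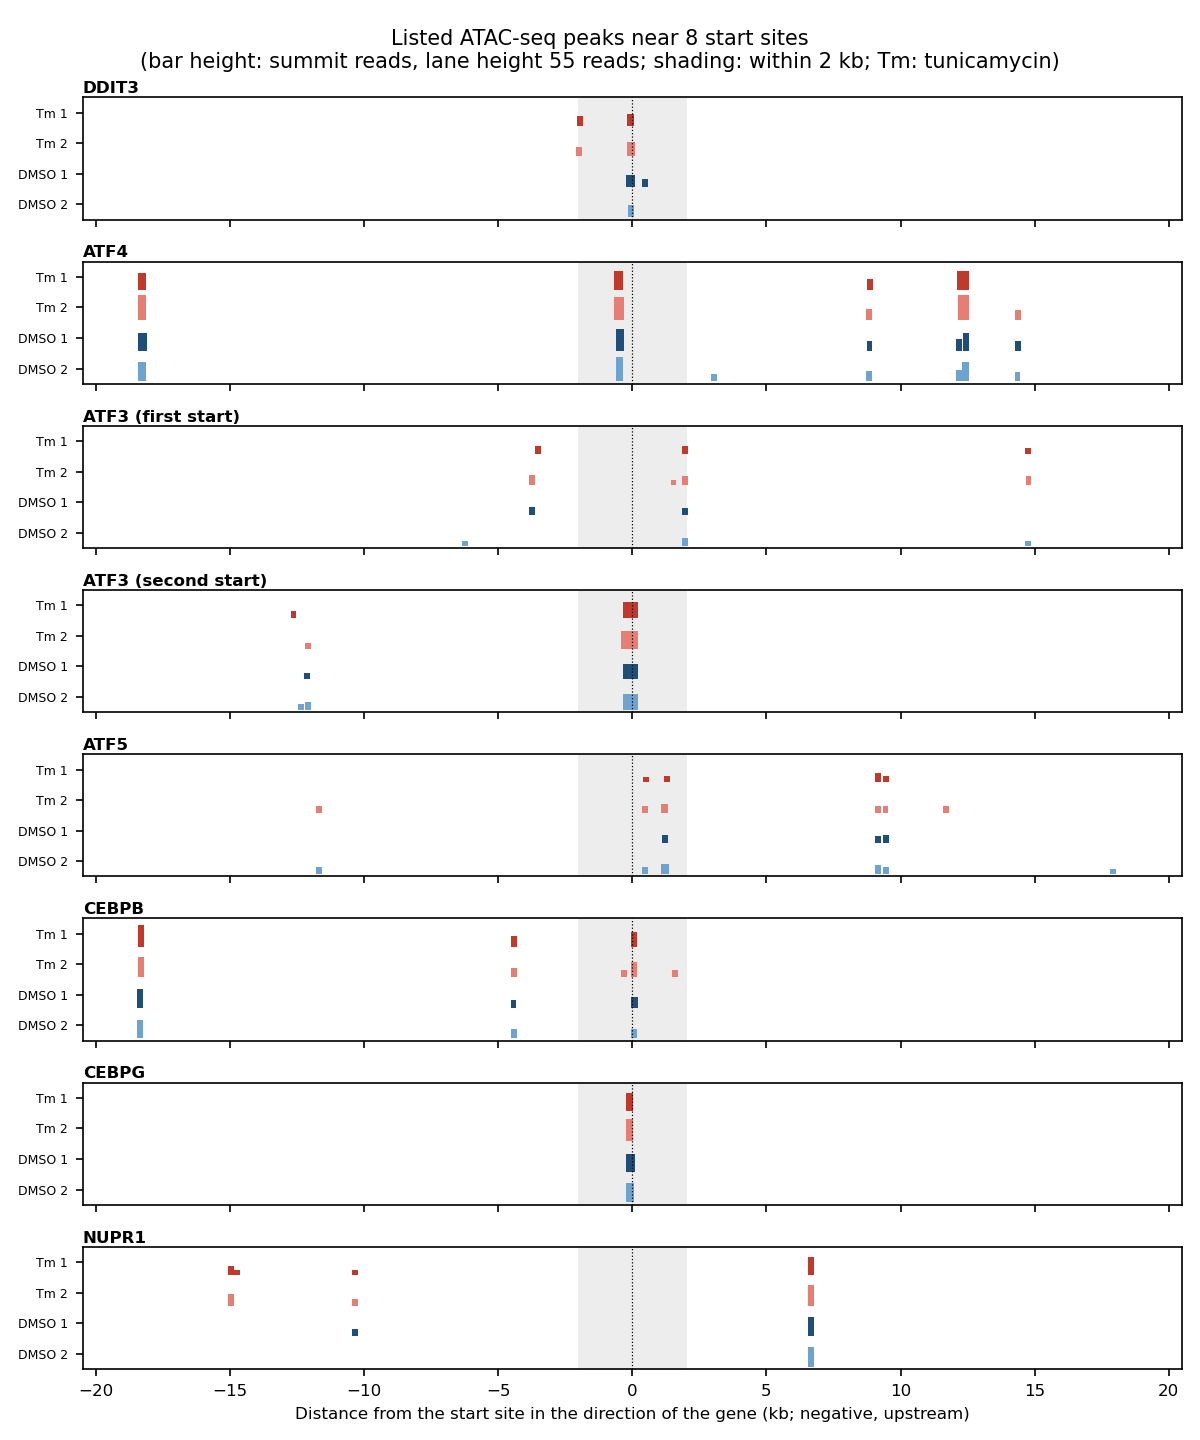
Listed ATAC-seq peaks within 20 kb of the 8 start sites, 1 lane per library (Tm, tunicamycin). The x axis is the distance from the start in kb in the direction of the gene, bar height is the number of summit reads on a lane of 55 reads, narrow peaks are drawn at a minimum width of 0.22 kb, and shading marks 2 kb on either side. Peaks 1949 bp upstream of DDIT3 and 14978 bp upstream of NUPR1 appear in the tunicamycin lanes and not in the DMSO lanes.

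To compare how strong the common regions were, each was ranked within its library by its best q-value, and the rank is given as a percentile among the 40447 regions common to all libraries. The percentiles were turned into normal scores and tested with limma over all of these regions. None of the 15 regions near the genes was called at a Benjamini-Hochberg adjusted p under 0.05 (limma adjusted p between 0.597 and 0.993), and 1 of 15 had an unadjusted p under 0.05, where 7.33% of all common regions had one. Over all common regions the test called 21, or 0.0519%, of which 14 were higher and 7 lower in tunicamycin. In 2 of 15 regions each tunicamycin rank exceeded each DMSO rank, against a background of 18% of all common regions, and in 5 of 15 each was lower, against 18.3%. The median change in score was 0.03 for the 15 regions and 0.00044 for all. A miss in this test does not show that a region was alike in both groups: the median SE of a change was 0.41 score units for the 15 regions.

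**Figure D2:**
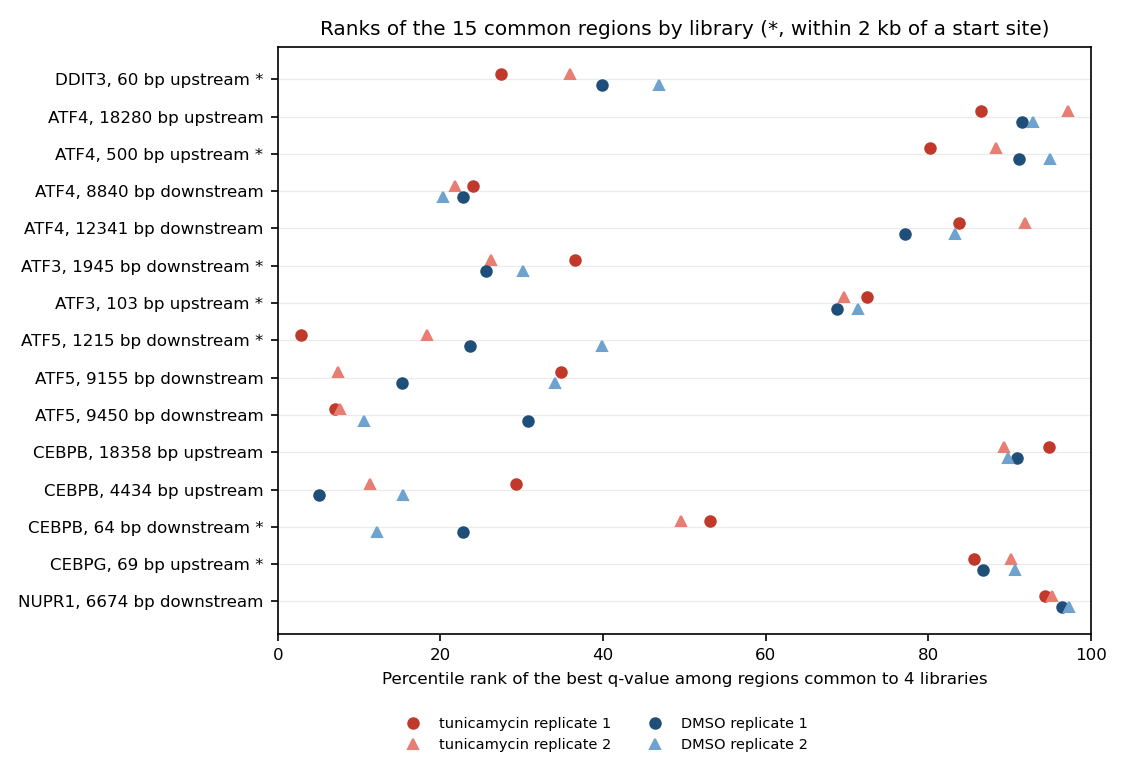
Percentile rank of the best q-value (x axis, percent; higher is stronger) of the 15 common regions near the 7 genes in each library. Asterisks mark regions within 2 kb of a start. At CEBPB, 64 bp downstream, the tunicamycin points at 53.1 and 49.6 lie to the right of the DMSO points at 22.7 and 12.2.

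ATF4, the factor whose translation rises when eIF2α is phosphorylated, had the highest mean percentile of the 7 common promoter regions. Its region, 500 bp upstream of the start (chr22:39915877-39916261, hg19), reached from 692 to 308 bp before it and did not cover the start itself. Summit reads were 39 and 50 in tunicamycin and 46 and 53 in DMSO, and the groups overlap. Percentiles were 80.1 and 88.4 in tunicamycin, against 91.1 and 95.0 in DMSO, so both tunicamycin ranks lay below both DMSO ranks. The score changed by -0.48 ± 0.28 (SE, n = 2 each), which limma did not call (adjusted p = 0.756). The peaks themselves were 352 and 360 bp wide in tunicamycin and 296 and 260 bp wide in DMSO, and ranking the region by width in place of the q-value turns the sign of the change to 0.45.

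Farther from ATF4, a region 12341 bp downstream (chr22:39928691-39929130) was 1 peak in each tunicamycin library and 2 peaks in each DMSO library. The tunicamycin peaks were 434 and 410 bp wide. The strongest of the DMSO peaks were 224 and 242 bp wide, and the weaker ones 111 and 114 bp. Together the DMSO pair ran over 39928697-39929124 in replicate 1 and 39928710-39929122 in replicate 2. The tunicamycin peaks covered nearly the same span, 39928691-39929124 and 39928721-39929130. Summit reads were 40 and 54 in tunicamycin and 36 and 40 in DMSO, so that the groups touch at 40. Percentiles were 83.8 and 91.9 in tunicamycin and 77.2 and 83.3 in DMSO, with a score change of 0.34 ± 0.29 and a limma adjusted p = 0.867. By gene order on GRCh38, RPS19BP1 is the next protein-coding gene on this side and MIURF and MIEF1 the next on the other. Of the remaining common regions of ATF4, the one 18280 bp upstream had percentiles of 86.5 and 97.1 in tunicamycin and 91.5 and 92.9 in DMSO. The one 8840 bp downstream had 24.1 and 21.8 in tunicamycin and 22.8 and 20.3 in DMSO, and the groups overlap at both.

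DDIT3 encodes a factor that pairs with C/EBP proteins and is linked to cell death under prolonged ER stress. Its common promoter region was centred 60 bp upstream of the start (chr12:57914200-57914522) and reached from 222 bp before it to 100 bp after it. Summit reads were 22 and 27 in tunicamycin, against 22 and 24 in DMSO, so the peak height overlaps between groups. The percentiles of the q-value were 27.5 and 35.9 in tunicamycin and 39.9 and 46.9 in DMSO. The score change of -0.31 ± 0.41 was not called by limma (adjusted p = 0.931). The fold that the authors deposited was read as the summit divided by the local background, with 1 added to each. It was 8.02 and 9.25 in tunicamycin and 9.55 and 10.3 in DMSO.

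The local background under the DDIT3 promoter peak, the level that the peak caller took from the surroundings of the summit, was higher in tunicamycin. It was 1.87 and 2.03 reads per position in tunicamycin, against 1.41 and 1.43 in DMSO. The groups do not overlap, which was not particular to DDIT3. Before any centring, both tunicamycin values lay above both DMSO values in 6 of the 15 regions near the genes and below in 3. The matching share over all common regions is not given here. Over the 40447 common regions, with each library centred on its median, the DDIT3 background was 1.31-fold higher in tunicamycin, a log2 change of 0.39 ± 0.09 (SE) with a 95% interval from 0.22 to 0.56. It was called by limma at an adjusted p = 0.004, among 1.42% of all common regions, 280 higher and 293 lower. Without the centring the ratio was 1.37 and the limma adjusted p = 0.0563, which misses the threshold; the median of all regions is then shifted by 0.06 log2. The comparison of backgrounds was chosen after seeing the data, and the width over which the caller measured the surroundings is not given in the sources used here. In DMSO replicate 1 the peak 464 bp downstream had the same background of 1.41, so the level is not that of a single peak. Whether the surroundings take in the region listed 1949 bp upstream in tunicamycin was not tested. For the other 14 regions near the genes the change lay between -0.21 and 0.17 log2, with limma adjusted p between 0.516 and 0.990.

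**Figure D3:**
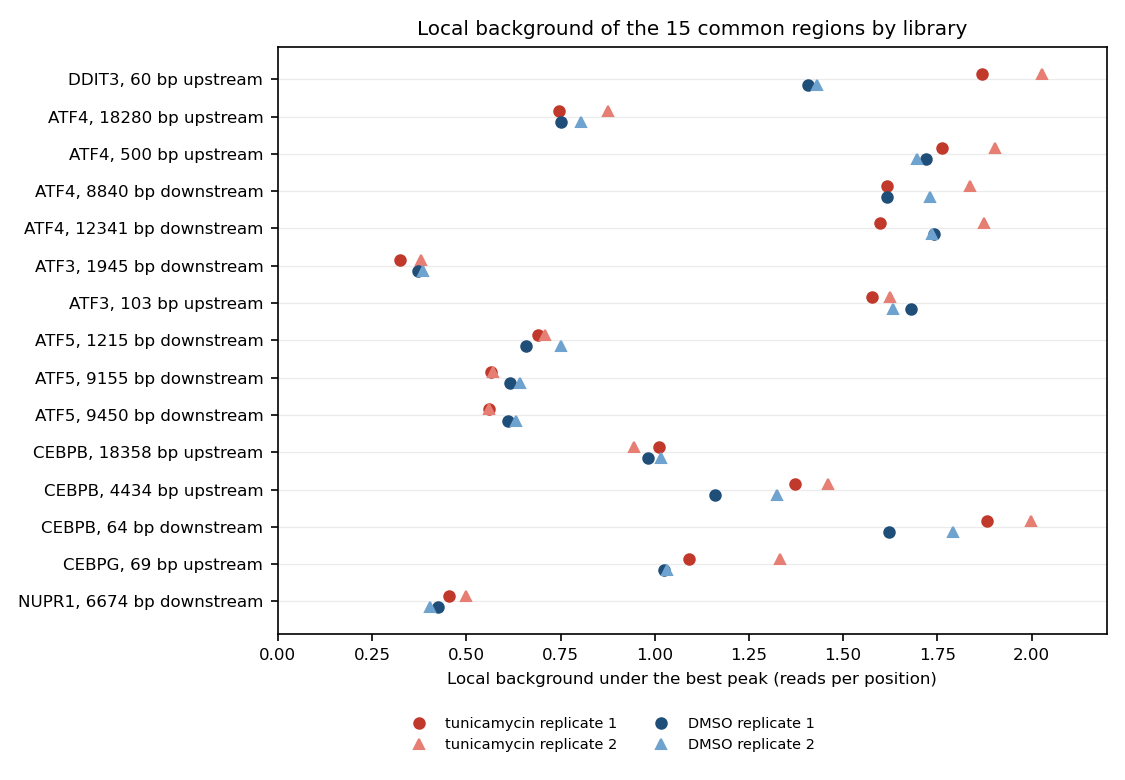
Local background under the best peak (x axis, reads per position) of the 15 common regions in each library. At DDIT3, in the top row, the tunicamycin points are at 1.87 and 2.03 and the DMSO points at 1.41 and 1.43; no centring was applied to the plotted values.

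A gained region lay 1949 bp upstream of the DDIT3 start (chr12:57916151-57916348), just inside the promoter limit. Its peaks were 198 and 109 bp wide with 17 summit reads in each tunicamycin library, and no peak was listed in either DMSO library. Their folds, as the authors deposited them, were 6.82 and 6.60. They stood at the 27.9th and 24.7th percentile of their own lists. No listed peak is not an absence of reads: the lists give no value for a region below the caller's threshold. MBD6 is the next protein-coding gene on this side of DDIT3 in the GRCh38 order, and MARS1 overlaps DDIT3 there. The remaining DDIT3 region, 464 bp downstream, was listed in DMSO replicate 1 alone, with 13 summit reads.

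ATF3, a stress-induced factor that ATF4 is known to activate, had 2 starts in the rule. At the second start a region centred 103 bp upstream (chr1:212781576-212782197) held the broadest peaks near the 7 genes, 547 and 610 bp in tunicamycin and 557 and 548 bp in DMSO. Summit reads were 34 and 36 in tunicamycin and 32 and 33 in DMSO. The summits were higher by at least 1 read in tunicamycin before any centring. With each library centred on its median, a comparison chosen after seeing the data, the log2 change in summit reads was -0.0047. The percentiles of 72.5 and 69.6 in tunicamycin and of 68.7 and 71.3 in DMSO overlap. The score change was 0.03 ± 0.32, with a limma adjusted p = 0.993. Near the first start the common region was centred 1945 bp downstream (chr1:212740522-212740721). It was weaker, with 14 and 14 summit reads in tunicamycin and 12 and 13 in DMSO. Its percentiles were 36.5 and 26.2 in tunicamycin and 25.6 and 30.2 in DMSO, which overlap. Another region, 1532 bp downstream of the first start, was listed in tunicamycin replicate 2 alone, with 5 summit reads. The starts of ATF3 are 43313 bp apart in the rule and 49611 bp apart in the RefSeq table, so the printed ATF3 element cannot be assigned to a peak.

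ATF5, which like ATF4 is controlled through upstream open reading frames, had the lowest mean percentile of the common promoter regions. The region was centred 1215 bp downstream of the start (chr19:50433011-50433338). Summit reads were 9 and 15 in tunicamycin and 14 and 18 in DMSO, and the groups overlap. The percentiles of 2.87 and 18.3 in tunicamycin lay below those of 23.6 and 39.9 in DMSO. The score change of -0.91 ± 0.49, which was -1.38 without tunicamycin replicate 2 and -0.39 without tunicamycin replicate 1, had an unadjusted p = 0.0654 and an adjusted p = 0.716 in limma. A second promoter region of ATF5, 480 bp downstream, was listed with 7 and 11 summit reads in tunicamycin and with 10 in DMSO replicate 2 alone. Both distal common regions, at 9155 and 9450 bp downstream, had between 10 and 16 summit reads in every library. NUP62 and IL4I1 overlap ATF5 in the GRCh38 annotation, so the regions cannot be assigned to ATF5 by position alone.

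CEBPB, a C/EBP factor that pairs with ATF4, had a promoter region whose rank was higher in tunicamycin in both libraries but was not called. Its promoter region was centred 64 bp downstream of the start (chr20:48807312-48807570) and reached from 64 bp before to 194 bp after it. Summit reads were 29 and 31 in tunicamycin, against 19 and 17 in DMSO, and the groups do not overlap. The means were 30 ± 1.41 reads in tunicamycin and 18 ± 1.41 in DMSO (SD, n = 2 each). The percentiles were 53.1 and 49.6 in tunicamycin and 22.7 and 12.2 in DMSO. The score changed by 0.99 ± 0.42, with a 95% interval from 0.14 to 1.84, and this was the 1 region of the 15 with an unadjusted p under 0.05. After adjustment over all common regions the limma p was 0.597, so the region was not called. The unadjusted p depended on the value ranked. By the deposited −log10 p-value the change was 0.99 (limma unadjusted p = 0.0224), and by the deposited fold 0.83 (limma unadjusted p = 0.0734). An alternative likewise chosen after seeing the data used log2 summit reads, with each library centred on its median. By it the summit was 1.54-fold higher in tunicamycin (0.63 ± 0.24 log2, limma adjusted p = 0.40).

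The width of the CEBPB peak did not separate the groups: it was 238 and 233 bp in tunicamycin and 252 and 227 bp in DMSO. Ranking by width gave a score change of -0.06, of opposite sign. The local background under the peak was 1.88 and 2.0 reads per position in tunicamycin and 1.62 and 1.79 in DMSO. Peaks at 308 bp upstream and 1576 bp downstream of the start were listed in tunicamycin replicate 2 alone, the longest of the 4 lists, with 11 and 12 summit reads. The distal region 4434 bp upstream had percentiles of 29.3 and 11.4 in tunicamycin and 5.03 and 15.4 in DMSO, which overlap. At 18358 bp upstream the region was strong in every library, with 46 and 42 summit reads in tunicamycin and 39 and 39 in DMSO.

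**Figure D4:**
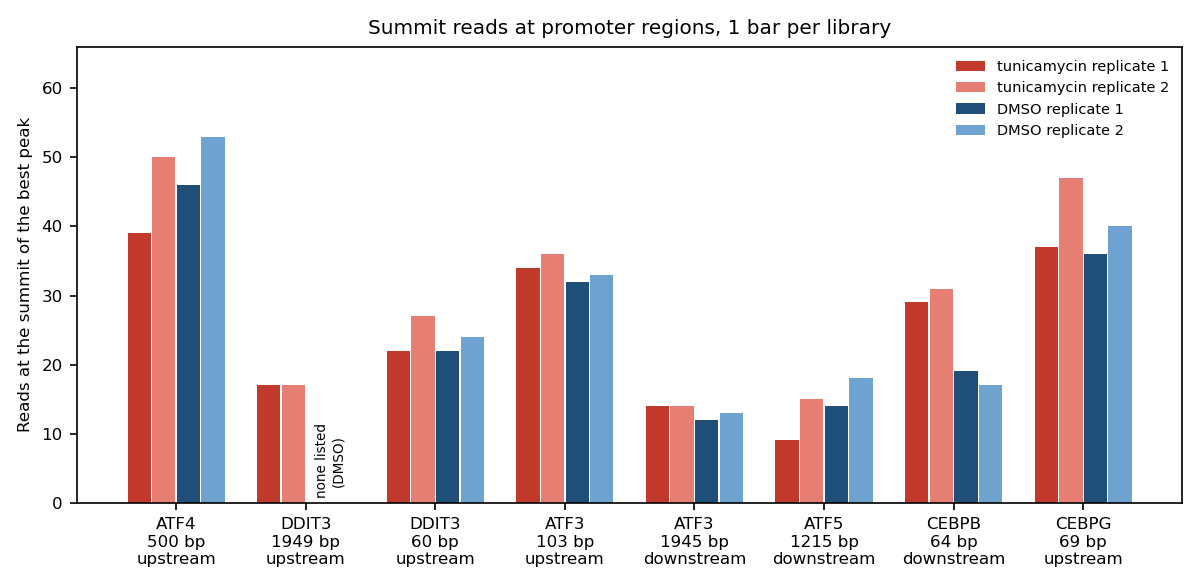
Reads at the summit of the best peak (y axis) in the common and gained promoter regions, 1 bar per library. The CEBPB bars are 29 and 31 in tunicamycin and 19 and 17 in DMSO, and the region 1949 bp upstream of DDIT3 has 17 reads in each tunicamycin library and no listed peak in DMSO.

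CEBPG, a C/EBP protein without an activation domain of its own that pairs with ATF4, had 1 region within 20 kb, centred 69 bp upstream of its start (chr19:33864374-33864707). It was strong in every library. Summit reads were 37 and 47 in tunicamycin and 36 and 40 in DMSO, and the groups overlap. The percentiles were 85.6 and 90.2 in tunicamycin and 86.8 and 90.6 in DMSO. The score change was -0.04 ± 0.28 (limma adjusted p = 0.990), with a 95% interval from -0.60 to 0.52.

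NUPR1 encodes a small chromatin-associated protein that is known to be induced with ATF4. The nearest region common to all libraries lay 6674 bp downstream of the start (chr16:28543712-28543930). It had 37 and 43 summit reads in tunicamycin and 39 and 42 in DMSO, which overlap. Its percentiles were 94.3 and 95.2 in tunicamycin and 96.5 and 97.3 in DMSO, with a score change of -0.25 ± 0.26 and a limma adjusted p = 0.900. The second gained region near the 7 genes lay 14978 bp upstream of NUPR1 (chr16:28565415-28565533). Its tunicamycin peaks were 111 and 113 bp wide, with 16 and 21 summit reads and deposited folds of 11.3 and 14.8. They stood at the 53.3rd and 68.5th percentile of their own lists, above the gained region of DDIT3. SGF29 is the next protein-coding gene on this side of NUPR1 in the GRCh38 order.

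Ordered by mean percentile, the common promoter regions ran from ATF4 (88.7) through CEBPG (88.3), ATF3 at its second start (70.5), DDIT3 (37.5), CEBPB (34.4) and ATF3 at its first start (29.6) to ATF5 (21.2). ATF4 and CEBPG overlap in their ranges over the 4 libraries, and so do the last 4 regions with each other. The second start of ATF3 overlaps with none of them. Tunicamycin ranks lay above DMSO ranks in 1 of the 7 promoter regions and below in 3. Over all common regions the shares were 18% above and 18.3% below. With 7 regions, neither count is read as a result about these promoters.

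**Figure D5:**
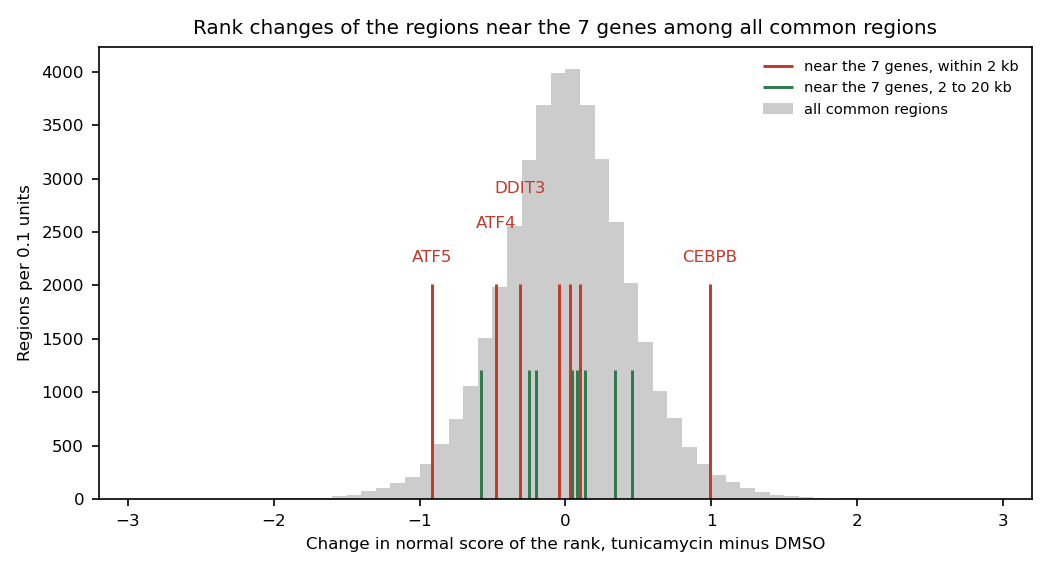
Change in the normal score of the rank, tunicamycin minus DMSO (x axis), for all 40447 common regions (grey, regions per bin of 0.1 units) and for the 15 regions near the 7 genes (lines). CEBPB lies at 0.99 and ATF5 at -0.91, and 0 of the 15 were called.

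The limits of the rule had few regions near them. Just inside 20 kb were the common regions 18358 bp upstream of CEBPB and 18280 bp upstream of ATF4. Just outside were common regions 21576 bp downstream of ATF3 and 22738 bp downstream of ATF4. Just inside 2 kb were the gained region of DDIT3 at 1949 bp and the common region of ATF3 at 1945 bp, and just outside were single-list regions 3030 bp from ATF4 and 3522 bp from ATF3.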

How the data were processed

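ATAC-seq peak lists of 2 tunicamycin and 2 DMSO libraries on hg19 were used, grouped by title. Peaks, per the submitters' processing notes, involved MACS2 2.2.7.1, with Bowtie2 2.3.5.1, Picard 2.18.23, deepTools, SAMtools and Trim Galore also listed; settings, transposase offset and filters are not stated there. For each peak the authors deposited a score, a fold, −log10 p-values and q-values, and a summit position. Regions were merged at 1 bp of overlap. Summit reads and background were computed from the fold and −log10 p-value. Ranks were compared with limma 3.58.1 (R 4.3.3, Python 3.11.15, scipy 1.17.1), with a mean-dependent prior variance and Benjamini-Hochberg adjustment over 40447 regions, after a test on simulated data. P-values measure no spread beyond that between 2 libraries per group. In limma this spread was pooled with that of other regions, so its SEs and p-values are not those of a region alone. The named regions were those within 2 kb, the gained ones, the common ones, and those at the limits of the rule. The plan was to give the highest-ranked distal common region of each gene in full. At ATF4 that is the region at 18280 bp, while the fuller account was given of the one at 12341 bp. Members and lists were chosen with earlier results of these data known. Other pathway genes were not located, since no hg19 annotation was used. The labels do not say whether replicate numbers pair the samples, and the main tests did not use a pairing.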

Additional observations from a re-analysis of the deposited data

How the results depend on the processing

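The difference of 2.5 peaks could not reach the threshold with 2 against 2 libraries under any setting. It was 0 with lists of equal length and ran from 0 (without tunicamycin replicate 2) to 5 (without tunicamycin replicate 1) when each library was left out. Gained regions near the genes (2) numbered 1 at a −log10 q of at least 10, 1 in a 10 kb window and 0 at widths of at least 130 bp. They numbered 6 and 5 without tunicamycin replicates 1 and 2, and 3 and 4 without DMSO replicates 1 and 2, where fewer lists set the pattern. Lost regions (0) numbered 1 with a reciprocal overlap of 50%, 0 and 2 without tunicamycin replicates 1 and 2, and 4 and 1 without DMSO replicates 1 and 2. Over all regions, leaving out a library gave 5937 to 8972 gained in place of 2878 and 2931 to 5191 lost in place of 1462, and a −log10 q of at least 10 gave 779 lost. Rank calls near the genes stayed at 0 in the alternatives run, while those over all common regions (21) numbered 0 by fold, by width or with one prior spread, 60 on log2 summit reads, and 5 and 12 without tunicamycin replicates 1 and 2. Of 84 alternative score changes of the 7 promoter regions, 73 kept their sign, 11 changed it and 0 were called. Ranked by width, the change was 0.16 at DDIT3, 0.45 at ATF4, -0.11 at ATF3 (1945 bp) and -0.060 at CEBPB. On log2 summit reads it was -0.0047 at ATF3 (103 bp) and 0.025 at CEBPG. With each library left out it ran from -0.043 to 0.24 at ATF3 (1945 bp), from -0.012 to 0.072 at ATF3 (103 bp), from -0.16 to 0.075 at CEBPG, from -1.38 to -0.39 at ATF5, from -0.42 to -0.18 at DDIT3, from -0.64 to -0.30 at ATF4 and from 0.75 to 1.14 at CEBPB. The causes were not tested. The background call (1) was 0 without centring, where the DDIT3 change was 0.46, and calls over all regions (573) were 299 without centring and 272 to 389 when each library was left out.

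The deviations of same-numbered libraries had a correlation of 0.0111, and those of crossed numbers -0.0111. With 2 libraries per group the second value mirrors the first, so this cannot decide whether the numbers pair the libraries. With the replicate block the peak difference was 2.5, rank calls near the genes were 0, calls over all common regions were 35 in place of 21, and background calls were 1 near the genes and 871 in all. Summit counts of 5 to 54 reads limit what any of these comparisons can resolve.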
